A study of Mus musculus with 45 samples.

Results

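The left and right ventricles of the mouse heart were compared at E14.5, in mid to late gestation, with 3 microarrays of each ventricle taken from a series of 45 arrays. The 6 arrays were chosen by their labels alone. All come from wild-type CD1 mice, an outbred stock, and carry no transgene or treatment. Ventricles were microdissected and each replicate pooled the tissue of 10 to 20 hearts, so a value is an average over many embryos and not the level in 1 animal. The design text describes the triplicates as biological samples. The other stages used for comparison are ventricle pairs, also 3 arrays a side, at E9.5 (30 to 50 hearts a pool), E12.5 (10 to 20), E18.5 (3 to 5), postnatal day 3 and adult (1 heart each). Below, LV1 to LV3 and RV1 to RV3 are the left and right replicates.

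The mouse ventricles arise from different progenitors: the left mainly from the first heart field, marked by the transcription factors Tbx5 and Hand1, and the right mainly from the second heart field, where Isl1 and Hand2 act. By E14.5 the ventricular septum is closing, the compact wall is thickening, coronary vessels are growing from the surface inwards, and fibroblasts that descend from the epicardium are entering the wall and laying down collagen. A dissected ventricle therefore holds muscle cells, endothelial cells, pericytes, fibroblasts and epicardium, and in such bulk tissue fewer cells of a type and less RNA per cell cannot be told apart.

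Values are log2 expression values made by the authors with RMA, which fits 1 value per probe set and scales all arrays together. Each of 18193 genes is represented by its brightest probe set on average over the series. A difference is left minus right on the log2 scale, so 1 unit is 2-fold. A gene was called when its Benjamini-Hochberg adjusted p in limma was under 0.05. Each difference is given with its standard error (SE), which comes from a spread shared by all groups. That SE is too small for genes in which 1 array stands far from its group, and can be too large for genes that vary more in other groups. The number of arrays limits the precision.

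The tissue labels were first set against marker genes. Myl2, the ventricular myosin light chain, had values of 14.94, 14.82 and 14.93 on the left arrays and 14.93, 14.97 and 14.97 on the right. The ranges of the ventricles overlapped at a high level of this marker. The atrial genes Myl7 and Sln were present too. Sln, the regulator of the calcium pump in atrial muscle, read 6.54, 9.06 and 7.01 on the left and 9.89, 9.16 and 9.09 on the right, a difference of -1.84 (adjusted p = 0.178). Over the 15 atrial and venous pole genes measured the array means were 8.96, 9.32 and 9.09 on the left and 9.55, 9.19 and 9.24 on the right, so RV1 carried the highest level.

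LV2 stood apart from the other arrays. Krt1, a keratin of the outer skin, read 4.96, 9.64 and 5.39 on the left arrays against 4.76, 4.35 and 4.27 on the right. The skin keratinocyte gene Krtdap read 5.55, 9.80 and 5.61 against 3.93, 4.01 and 3.83. The embryonic skeletal muscle myosin Myh3 read 9.90, 10.66 and 6.93 against 5.47, 5.22 and 5.50. Both skin genes were far higher on LV2 than elsewhere, and on LV1 and LV3 they were also above the right arrays, whereas Myh3 was high on LV1 as well as LV2 and stayed above the right arrays on LV3.

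The list means show the same order over whole tissues. For 23 skin genes they were 5.44, 7.40 and 5.57 on the left and 5.43, 5.34 and 5.30 on the right, and 19 of the 23 were highest on LV2. For 26 skeletal muscle genes they were 5.95, 6.83 and 5.59 against 5.43, 5.36 and 5.35. Myod1 and Pax7, which define muscle precursors, were at 4.04 and 3.57 on LV1, near their right ventricle values, and at 5.32 and 5.08 on LV2.

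Liver genes followed another pattern. The 23 liver genes averaged 5.02, 8.23 and 7.04 on the left and 6.52, 4.83 and 5.10 on the right, so LV2, LV3 and RV1 carried them. Albumin (Alb) read 7.37, 12.17 and 10.52 on the left and 9.69, 6.20 and 7.06 on the right, and did not pass the test (difference 2.37, adjusted p = 0.064). The 19 red cell genes averaged 7.29, 8.91 and 7.60 against 7.62, 6.95 and 6.93. The globins Hba-x and Hbb-y, of the first wave of embryonic red cells, read 13.12 and 14.53 on LV2, above every other array. Most results below are therefore given with all 6 arrays and without LV2, and where LV1 matters also without both. Where no set of arrays is named, values are from all 6.

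**Figure D1:**
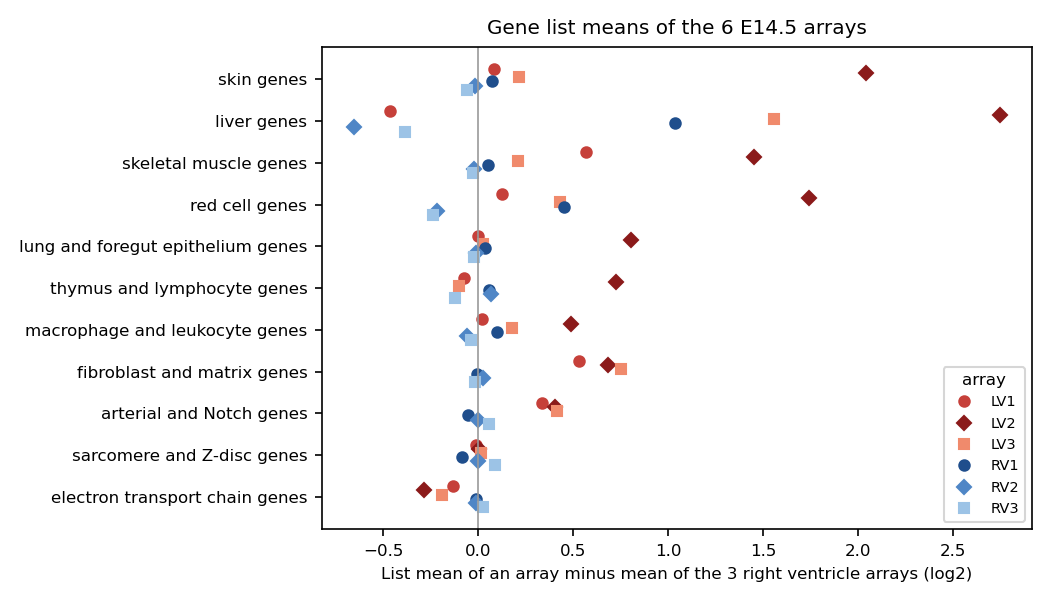
Mean log2 expression of 11 gene lists on each E14.5 array, drawn as the difference from the mean of the 3 right ventricle arrays (horizontal axis, log2). Each point is 1 array. Skin, skeletal muscle and red cell genes were highest on LV2, liver genes on LV2, LV3 and RV1, and fibroblast and matrix genes were above the right arrays on all 3 left arrays.

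Across the 18193 genes, 1548 (8.51%) were called with all arrays, 771 (4.24%) higher in the left and 777 (4.27%) higher in the right ventricle. Without LV2, 445 (2.45%) were called, 272 (1.50%) higher in the left and 173 (0.951%) higher in the right. Of the genes called with all arrays, 431 kept their call without LV2 (267 left, 164 right). In 426 of these 431 the 3 left values did not overlap the 3 right values, which held for 5624 (30.9%) of all genes, the left above the right in 2034 (11.2%) and below it in 3590 (19.7%). With LV1 also left out, 150 genes (0.824%) were called, 91 (0.500%) left-higher and 59 (0.324%) right-higher, and 129 of the 431 remained; LV3 is then the only left array and is assumed to vary like the other groups. Leaving out LV1, LV3, RV1, RV2 or RV3 instead of LV2 gave 2148, 928, 564, 673 and 1333 calls. The share of calls higher in the left ventricle, 49.8%, moved to 24.4% when arrays were scaled to 16 housekeeping genes, because that scaling shifts every difference by -0.09. The median difference over all genes was -0.05. Called members of every gene list below stand beside 4.24% left-higher and 4.27% right-higher of all genes. Without LV2 these shares are 1.50% and 0.951%.

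Many genes of collagen fibres and fibroblasts were higher in the left ventricle. Of 24 fibroblast and matrix genes measured, 11 were higher in the left ventricle and none in the right with all arrays, against 4.24% and 4.27% of all genes. Without LV2 the counts were 7 and 0, and without LV1 and LV2 they were 2 and 0. The list's median difference was 0.71, beside -0.05 for all genes, and its array means were 10.41, 10.56 and 10.63 on the left and 9.87, 9.90 and 9.86 on the right. RV1, which carried liver genes at a mean of 6.52, was at the same matrix level as RV2 and RV3. LV1 had skeletal muscle genes and LV3 liver genes, as given above; their part in the matrix result was not tested, and LV3 had skin and skeletal muscle means 0.21 and 0.20 above the right ventricle mean.

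Col1a1, a chain of type I collagen, read 11.41, 11.52 and 11.78 on the left and 9.85, 10.08 and 10.17 on the right, a difference of 1.54 (SE 0.25, adjusted p = 2.46e-04) with all arrays and 1.56 (SE 0.29, adjusted p = 0.002) without LV2. Its partner chain Col1a2 read 13.66, 13.73 and 13.70 against 12.54, 12.53 and 12.66. The Col1a2 difference was 1.12 (SE 0.23, adjusted p = 0.002) with all arrays and 1.11 (adjusted p = 0.017) without LV2. No left array of either gene came near the right arrays. Col6a3, a chain of the beaded type VI collagen, read 9.76, 10.33 and 9.56 against 8.17, 8.203 and 8.24 (difference 1.67, SE 0.23, adjusted p = 2.69e-05). LV2 was highest, and the difference without it was 1.45 (adjusted p = 0.001). Col5a1, a chain of the collagen that starts fibres, read 10.96, 10.53 and 10.86 against 9.63, 9.59 and 9.86, with LV2 the lowest left array, a difference of 1.09 (adjusted p = 0.008) and of 1.22 (adjusted p = 0.021) without LV2.

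Pdgfra, the growth factor receptor that marks cardiac fibroblasts, read 9.85, 9.71 and 9.97 against 8.87, 8.94 and 9.11 (difference 0.87, adjusted p = 0.007; without LV2 0.94, adjusted p = 0.026). Fn1 (fibronectin) differed by 1.00 (adjusted p = 0.004) and Thbs2 (thrombospondin 2, a regulator of collagen assembly) by 0.71 (adjusted p = 0.012), and both kept their call without LV2. Col6a1, Ogn, Fbln1 and Tnc were called only with all arrays, at adjusted p from 0.071 to 0.194 without LV2. Of the members not called, Col3a1 differed by 0.72 (adjusted p = 0.233), Postn by 0.08 (adjusted p = 0.952) and Lum, a small leucine-rich proteoglycan, by -0.09 (adjusted p = 0.912). Lum overlapped between the ventricles, with RV2 the highest array.

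The collagen and adhesion genes Col14a1, Col12a1 and Svep1, outside this list, were also among the 12 left-higher genes named by size. Members of the lists of other tissues, such as Myh3 and Tnnc2, were left out of that ranking. Col14a1, which sits on the surface of collagen fibres, read 10.23, 9.94 and 9.76 on the left and 8.21, 8.12 and 8.38 on the right (1.74, SE 0.42, adjusted p = 0.008). Col12a1, of the same class, read 7.40, 7.96 and 7.05 against 5.52, 5.55 and 5.50 (1.95, SE 0.34, adjusted p = 4.10e-04). Only 1 of the 4 probe sets of Col12a1 was called, and the lowest difference among them was 0.01. Svep1, a large secreted adhesion protein, read 7.49, 7.16 and 7.40 against 5.97, 5.79 and 6.23 (1.36, SE 0.28, adjusted p = 0.003). In each of these genes every left array lay above every right array. This, and a call with and without LV2, were conditions of naming genes by size, so neither is added evidence. All kept their call without LV2, and none kept it without LV1 and LV2 (adjusted p = 0.236, 0.109 and 0.088).

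Of the 7 matrix genes called with and without LV2, 5 have a promoter entry in RefSeq (build GRCm38.p6; 250 bases before to 50 after the start). The promoters of Col1a2 and Thbs2 are shown because they alone among the 5 hold the CCAAT box, searched as CCAAT and as its reverse complement ATTGG, which are in capitals. The 2 of 5 compares with 37.4% of 32851 promoters of the same length that hold either word, and a match is not evidence of binding. Col1a2 is at chr6:4505368-4505667 on the plus strand, with matches at positions 142 and 251, and Thbs2 at chr17:14694213-14694512 on the minus strand, with matches at 65 and 107.
Col1a2: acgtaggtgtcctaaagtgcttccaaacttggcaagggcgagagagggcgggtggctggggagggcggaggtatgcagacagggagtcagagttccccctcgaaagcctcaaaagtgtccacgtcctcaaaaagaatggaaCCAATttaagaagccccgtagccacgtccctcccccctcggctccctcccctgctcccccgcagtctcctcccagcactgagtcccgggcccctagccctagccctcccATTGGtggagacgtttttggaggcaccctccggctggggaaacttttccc
Thbs2: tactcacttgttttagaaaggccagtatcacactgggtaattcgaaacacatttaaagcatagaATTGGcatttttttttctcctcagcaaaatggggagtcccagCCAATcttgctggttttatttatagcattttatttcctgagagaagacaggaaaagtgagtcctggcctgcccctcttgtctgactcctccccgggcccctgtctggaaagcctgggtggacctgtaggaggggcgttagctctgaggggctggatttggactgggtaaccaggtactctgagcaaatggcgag

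Genes of arteries and Notch signalling, the pathway by which arterial cells are specified, followed. Of 18 arterial and Notch genes, 7 were higher in the left ventricle and none in the right (without LV2, 3 and 0; without LV1 and LV2, none in either direction). Their array means were 8.59, 8.66 and 8.67 on the left, and 8.25 and 8.31 on RV2 and RV3 with RV1 below both. The receptor Notch2 read 8.48, 8.46 and 8.64 against 7.303, 7.36 and 7.73 (difference 1.06, SE 0.21, adjusted p = 0.002), and Notch1 read 9.53, 9.71 and 9.47 against 8.70, 8.74 and 8.999 (0.76, adjusted p = 0.003). Neither gene overlapped between ventricles. Nrp1, a co-receptor for vascular growth factor and semaphorins, was called as well, at 0.57 (adjusted p = 0.007). Notch2 and Notch1 kept their calls without LV2 (adjusted p = 0.011 and 0.031). Notch3, Jag1, Unc5b and Cxcr4 were called only with all arrays; the ligand Dll4 (0.36, adjusted p = 0.071) and the targets Hey1 (0.03, adjusted p = 0.933) and Hes1 (-0.12, adjusted p = 0.458) did not pass.

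Of 15 smooth muscle and pericyte genes 4 were higher in the left and none in the right, against 4.24% and 4.27% of all genes. These counts became 2 and 0 without LV2, against 1.50% and 0.951%. Pdgfrb, the receptor of pericytes, read 10.14, 9.81 and 10.16 on the left and 9.07, 9.17 and 9.42 on the right (0.82, adjusted p = 0.019), and Cspg4 (NG2), another pericyte gene, read 8.61, 8.32 and 8.58 against 7.55, 7.69 and 7.83 (0.81, adjusted p = 0.012). LV2 was the lowest left array for both, and both kept their call without it. Mylk, smooth muscle light chain kinase, has probe sets called in opposite directions and is uncertain. Among 24 endothelial and endocardial genes 3 were higher in the left, Kdr, Aplnr and Pecam1, and Emcn was higher in the right. The vascular growth factor receptor Kdr was the 1 of these called without LV2 (0.76, adjusted p = 0.049). Of 17 epicardial genes 1 was called, a share below the 8.51% of all genes. Even so, 15 of the 17 differences were above 0, with a median of 0.34, beside -0.05 for all genes. The member called was Muc16, a mesothelial mucin, at 6.09, 5.79 and 6.56 against 5.36, 4.78 and 5.11 (1.07, adjusted p = 0.004). Muc16 kept its call without LV2 (1.24, adjusted p = 0.007).

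Of 24 guidance genes, which steer growing axons and vessels, 6 were higher in the left and 1 in the right, against 4.24% and 4.27% of all genes. Without LV2 the counts were 3 and 1, against 1.50% and 0.951%. Sema5a, a membrane-bound semaphorin, read 7.50, 8.65 and 8.26 on the left and 5.86, 5.71 and 6.38 on the right (2.15, SE 0.31, adjusted p = 3.91e-05). Plxna2, a semaphorin receptor, was at 7.84 to 8.26 on the left and 6.98 to 7.14 on the right (0.97, adjusted p = 2.46e-04). Ntn4, a netrin of basement membranes, was the right-higher member, at 7.76, 7.45 and 7.77 against 8.49, 8.72 and 8.55 (-0.93, adjusted p = 0.004). All 3 kept their call without LV2.

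Among muscle genes the sarcomere and calcium handling list medians lay near 0, and single genes differed. The 12 compact myocardium genes had a median difference of 0.21, with 11 above 0. Of these, 2 were higher in the left ventricle (1 without LV2) and none in the right. The member in both sets was Igf1r (0.97, adjusted p = 0.002, and 0.93, adjusted p = 0.015, without LV2). The 15 trabecular and conduction genes had a median of -0.14, with 5 above 0, 2 higher in the right and none without LV2. The 25 sarcomere and Z-disc genes had a median difference of -0.05, with 1 higher in the left and 3 in the right, beside 4.24% and 4.27% of all genes. Ttn, the giant spring of the sarcomere, read 12.61, 12.77 and 12.82 on the left and 11.71, 11.77 and 11.92 on the right (0.93, SE 0.21, adjusted p = 0.005; without LV2 0.92, adjusted p = 0.034). The groups did not overlap. Myoz2, Tcap and Tpm1, which were higher in the right with all arrays, were at adjusted p of 0.184, 0.173 and 0.310 without LV2. Slc8a1, the sodium-calcium exchanger, differed by 0.91 (adjusted p = 0.034) and by 0.88 (adjusted p = 0.139) without LV2.

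Among 20 cardiac transcription factors, Mef2c and Prox1 were higher in the left ventricle in every set of arrays. Mef2c, a driver of muscle differentiation, read 9.85, 10.49 and 10.10 against 9.04, 9.09 and 9.18 (1.04, SE 0.18, adjusted p = 4.78e-04; 0.014 without LV2; 0.046 without LV1 and LV2). Prox1, needed for sarcomere organization, read 8.23, 8.73 and 8.44 against 7.21, 7.34 and 7.03 (1.27, SE 0.22, adjusted p = 3.84e-04; 0.008; 0.046). Gata5 and Meis2 were higher in the right with all arrays only, and Meis2 has probe sets called in opposite directions.

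The energy genes that were called were higher in the right ventricle. Of 26 electron transport chain genes, 6 were higher in the right and none in the left with all arrays, against 4.27% and 4.24% of all genes. Without LV2 the counts were 1 and 0, against 0.951% and 1.50%. Of the 26 differences 25 were below 0, with a median of -0.14. Array means were 13.17, 13.02 and 13.11 on the left and 13.29, 13.29 and 13.33 on the right. Cox6a2, the heart and muscle subunit of cytochrome oxidase, read 12.20, 12.14 and 12.05 against 12.84, 12.77 and 12.88 (-0.70, SE 0.08, adjusted p = 1.70e-06; without LV2 -0.70, adjusted p = 3.17e-05). Its groups were far apart, whereas the other members called differed by -0.57 to -0.17 and lost their call without LV2. The -0.57 is Ndufv1, a subunit of complex I, which read 12.63, 11.42 and 12.41 against 12.59, 12.74 and 12.85, with LV2 far below the rest and the groups overlapping. Without LV2 it differed by -0.21 (adjusted p = 0.339). Of 24 fatty acid use genes 3 were higher in the right, against 4.27% of all genes, and none without LV2, against 0.951%.

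Of 22 glycolysis and hypoxia genes 3 were higher in the right with all arrays, against 4.27% of all genes, and 2 without LV2, against 0.951%. Egln3, an oxygen-sensing prolyl hydroxylase, read 8.65, 8.27 and 8.27 on the left and 9.09, 9.20 and 9.05 on the right (-0.72, adjusted p = 1.91e-04; without LV2 -0.66, adjusted p = 0.004). Eno3, the muscle enolase, read 12.80, 12.51 and 12.51 against 13.11, 13.16 and 13.18 (-0.54, adjusted p = 0.002; without LV2 -0.49, adjusted p = 0.023).

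Of 27 cell cycle genes 6 were higher in the left and none in the right, against 4.24% and 4.27% of all genes. Without LV2, 2 were higher in the left, against 1.50%. Mki67, the proliferation antigen, read 10.72, 11.12 and 10.87 against 9.68, 9.87 and 9.95 (1.07, SE 0.18, adjusted p = 3.11e-04; without LV2 0.96, adjusted p = 0.007), and Mcm3, a replication helicase subunit, was at 0.60 (adjusted p = 0.001; without LV2 0.56, adjusted p = 0.017). Top2a (0.69), Plk1 (0.65), Kif11 (0.55) and Cdc6 (0.48) were called with all arrays only, and 19 of the 27 differences were above 0. Among members not called, Pcna differed by 0.04, Ccna2 by 0.15 and Cdk1 by -0.34.

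**Figure D2:**
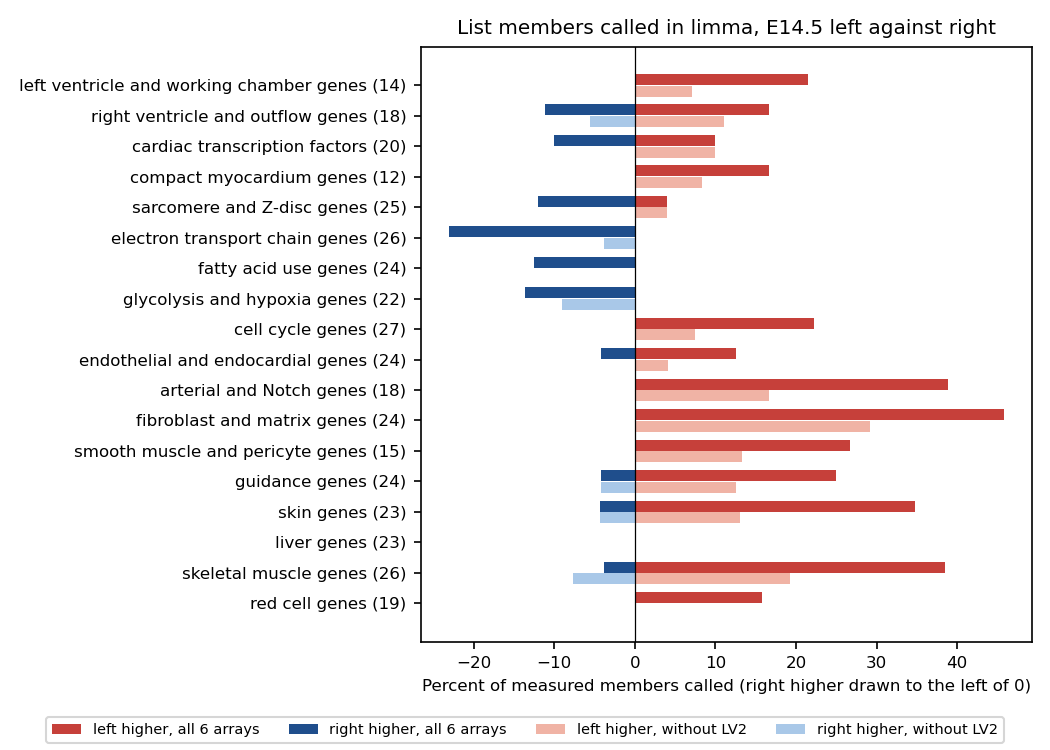
Percent of the measured members of 18 gene lists called in limma at E14.5, with all 6 arrays (dark bars) and without LV2 (pale bars). Bars to the right of 0 are members higher in the left ventricle, bars to the left of 0 members higher in the right, and list sizes are in brackets. Fibroblast and matrix genes had 11 of 24 called and, without LV2, 7 of 24.

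Most genes that mark the ventricles early in development were not called at E14.5. Tbx5 read 8.76, 8.95 and 9.22 on the left and 8.64, 8.498 and 8.77 on the right (0.34, SE 0.13, adjusted p = 0.109), after differences of 1.41 at E9.5 (adjusted p = 2.22e-09) and 0.86 at E12.5 (adjusted p = 9.07e-05). Hand1 differed by 0.15 (adjusted p = 0.514), after 0.68 at E12.5. Isl1 differed by -0.29 (adjusted p = 0.360), after -3.00 at E9.5, and Hand2 by -0.32 (adjusted p = 0.116), though all 3 left values of Hand2 were below the right ones. These misses do not show equal levels.

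Gja5, connexin 40 of the conduction system and arteries, was one of 2 such genes called. It read 5.39, 4.80 and 5.89 on the left and 4.86, 4.59 and 4.50 on the right, so LV2 lay below RV1, and the difference was 0.71 (SE 0.19, adjusted p = 0.017) with all arrays and 0.99 (adjusted p = 0.003) without LV2. Tbx20 read 11.89, 11.85 and 12.32 against 11.28, 11.68 and 11.62 (0.50, adjusted p = 0.035) and missed the threshold without LV2 (0.58, adjusted p = 0.056). Bmp10, Hey2, Nkx2-5, Gata4, Myl2, Myh6, Myh7, Nppa, Nppb, Cited1, Irx1, Irx2 and Irx4 were not called, at adjusted p from 0.291 to 0.943. In Nppa and in Cited1 all 3 left values were above the right ones, as in 11.2% of all genes. Nppa differed by 0.25 with a shared SE of 0.49, though its SD was 0.14 on the left and 0.10 on the right. Of the 18 right ventricle and outflow genes, 3 were higher in the left (Mef2c, Nrp2 and Prdm1) and 2 in the right, and without LV2 these counts were 2 (Mef2c and Nrp2) and 1. The right-higher member in both sets was Rspo3, which amplifies Wnt signals, at 6.44, 6.57 and 7.21 against 7.75, 7.88 and 7.42 (-0.94, adjusted p = 0.005; without LV2 -0.86, adjusted p = 0.047).

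The largest right-ventricle difference was in Dcpp1, a secreted protein of salivary and reproductive tissues. It read 5.95, 6.69 and 5.22 on the left and 9.11, 8.76 and 8.72 on the right, a difference of -2.91 (SE 0.25, adjusted p = 3.39e-09) and -3.28 without LV2. The Dcpp genes are near-identical copies that a probe set may not tell apart, so the member that differs is uncertain. Wif1, a secreted Wnt inhibitor, read 6.70, 6.52 and 6.12 against 7.999, 8.25 and 8.47 (-1.79, SE 0.35, adjusted p = 0.002). Tesc, a calcium-binding protein, read 9.28, 7.83 and 8.38 against 10.18, 10.63 and 9.97 (-1.76, SE 0.25, adjusted p = 3.14e-05). Ppp1r17, a phosphatase inhibitor, read 4.78, 4.62 and 5.06 against 5.98, 6.67 and 6.47 (-1.55, SE 0.21, adjusted p = 1.47e-05). In none of these did a left value reach the right ones, which was a condition of naming them by size. Differences without LV2 were -1.83 for Wif1, -1.43 for Tesc and -1.45 for Ppp1r17, and a call without LV2 was a condition too.

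The other right-higher genes named by size were Mybphl, Casq1, Wnt16, Lypd6, Edil3, Il23a, Cmbl and Slitrk5, with differences of -1.33 to -0.98. Only 1 of the 6 probe sets of Edil3 was called, and their differences ranged up to 0.12. Mybphl, a myosin-binding protein of atrial and conduction muscle, read 5.40, 6.53 and 5.64 against 7.97, 6.76 and 6.82, and was highest on RV1, the array with the highest atrial gene mean. Mybphl lost its call under 9 of 15 alternative settings, among them leaving out RV1. Fgf12, itself a member of the atrial list, read 3.89, 5.23 and 4.05 against 6.59, 5.27 and 4.99, also highest on RV1, and its groups overlapped. The part of atrial genes in the Mybphl and Fgf12 differences was not tested. Casq1, the calcium store protein best known from skeletal muscle, read 8.89, 9.53 and 9.19 against 10.16, 10.31 and 10.06, opposite to the skeletal muscle list. Of 15 valve and cushion genes, 2 were higher in the left (Pdgfra and Tbx20) and 2 in the right, against 4.24% and 4.27% of all genes. These counts became 1 and 2 without LV2, against 1.50% and 0.951%. Of the 15 differences 8 were above 0. Hapln1, a right-higher member that links hyaluronan in the cushions, read 4.72, 5.29 and 6.14 against 6.90, 7.26 and 6.62 (-1.54, adjusted p = 0.002), and Bmp2, a cushion-inducing signal, 6.85, 6.98 and 7.64 against 8.06, 8.42 and 8.29 (-1.10, adjusted p = 0.003). Both kept their call without LV2 and lost it without LV1 and LV2 (adjusted p = 0.368 and 0.367).

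On the left, Agtr2, the type 2 angiotensin receptor, had the largest difference of the genes named by size, 3.79 (SE 0.47, adjusted p = 3.23e-06). It read 7.99, 8.04 and 4.46 against 2.80, 3.19 and 3.12. LV1 and LV2 were far above LV3, and without them the difference was 1.42 (adjusted p = 0.042). Myh3 was also higher on LV1 and LV2 (9.90 and 10.66) than on LV3 (6.93); the part of skeletal muscle genes in the Agtr2 difference was not tested. Gtsf1, a small zinc-finger protein known from germ cells, read 13.05, 12.60 and 13.27 against 11.71, 11.40 and 11.32 (1.50, SE 0.23, adjusted p = 7.40e-05, and without LV2 1.68). Only 1 of the 2 probe sets of Gtsf1 was called, and the other differed by -0.07. Dlk1, a Notch-like transmembrane protein from an imprinted gene, read 9.44, 9.44 and 9.31 against 8.32, 7.91 and 7.97 (1.33, SE 0.16, adjusted p = 2.79e-06). The left arrays had an SD of 0.34 for Gtsf1 and 0.07 for Dlk1, against 2.05 for Agtr2.

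Chn2, a GTPase-activating protein that turns Rac off, read 6.99, 6.98 and 6.95 against 5.53, 4.96 and 5.38 (1.68, SE 0.17, adjusted p = 1.49e-07). Prrc2c, an RNA-binding protein, read 10.11, 10.43 and 10.29 against 8.55, 8.59 and 8.88 (1.60, SE 0.18, adjusted p = 6.07e-07), and 4 of its 6 probe sets were called left. Zbed6, a transposon-derived transcription factor, read 7.19, 7.68 and 7.39 against 6.16, 5.73 and 6.08 (1.43, SE 0.17, adjusted p = 2.28e-06). These 3 genes kept their call without LV1 and LV2.

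**Figure D3:**
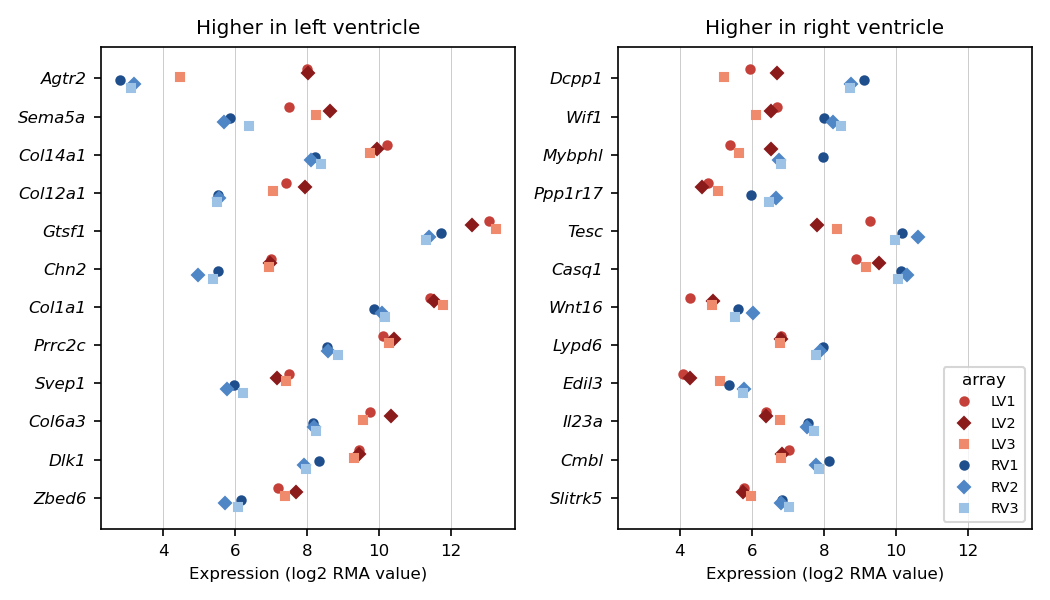
Expression (log2 RMA value) of the 12 left-higher and 12 right-higher genes named by size, 1 point per E14.5 array. Members of the lists of other tissues were left out of the ranking. In each gene the 3 left values (reds) lie on one side of the 3 right values (blues), because genes whose groups overlapped were not chosen. Agtr2 shows LV3 at 4.46, far below LV1 and LV2.

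Genes that differed with LV2 and not without it included markers of the tissues named above. With all arrays, left-higher calls were 8 of 23 skin, 10 of 26 skeletal muscle, 3 of 19 red cell and 0 of 23 liver genes. Without LV2 they were 3, 5, 0 and 0. The left-higher shares of all genes were 4.24% and 1.50%. Right-higher calls were 1 skin and 1 skeletal muscle gene with all arrays, and 1 and 2 without LV2. Dmkn, a skin gene, read 5.43, 10.40 and 6.21 on the left against 4.94, 4.39 and 4.73 on the right (2.66, adjusted p = 0.044; without LV2 1.13, adjusted p = 0.482). Slc4a1, the red cell anion exchanger, read 9.93, 12.36 and 10.63 against 10.18, 8.99 and 8.94 (1.61, adjusted p = 0.008; without LV2 0.91, adjusted p = 0.163). Cdh1, epithelial cadherin, read 4.24, 8.57 and 3.93 against 2.85, 2.47 and 2.83, and kept its call, with a difference of 2.86 (adjusted p = 0.003) and of 1.36 (adjusted p = 0.026) without LV2. The median difference of the skeletal muscle list was 0.42 with all arrays and 0.18 without LV2. Among its 5 left-higher members without LV2, Myh3 differed by 3.01 (adjusted p = 0.001), Tnnc2 by 2.52 (adjusted p = 0.001) and Neb by 1.12 (adjusted p = 0.005). Without LV1 and LV2, where LV3 is the only left array, these 3 differed by 1.53, 2.14 and 0.47. Dctn6, a dynactin subunit, was the right-higher gene with the largest difference among those lost without LV2, at 9.26, 6.80 and 9.18 against 9.23, 9.89 and 9.92.

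The E14.5 differences were set against the other stages, which share no arrays with them. They do share the fit, which gives each gene 1 spread for all stages. A small spread favours a call at E14.5 and at any other stage, so the shares of calls below are partly built in. Over all genes 637 (3.50%) were called at E9.5, 230 (1.26%) at E12.5 and 900 (4.95%) at E18.5. Of the 267 genes higher in the left ventricle in both sets of E14.5 arrays, 9 were called left-higher at E12.5 (3.37%, against 0.346% of all genes) and 19 at E18.5 (7.12%, against 2.84%). Of the 164 right-higher genes, 27 were called right-higher at E12.5 (16.5%, against 0.918%) and 16 at E18.5 (9.76%, against 2.11%), and none left-higher at either stage. At E12.5 the difference was above 0 in 147 of 267 left genes (55.1%, against 51.8% of all genes) and below 0 in 123 of 164 right genes (75.0%, against 48.1%), so the left share was near that of all genes. The difference between the directions was not tested. At E9.5, 8 left genes were called left-higher (3.00%, against 2.00% of all genes) and another 8 right-higher (3.00%, against 1.50%). Of the right genes 18 were right-higher at E9.5 (11.0%, against 1.50%) and 5 left-higher (3.05%, against 2.00%). At E18.5, 5 left genes were called right-higher (1.87%, against 2.11%). Day 3 had 1 call in all (0.00550%) and adult 3 (0.0165%).

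A contrast of the E14.5 difference with the mean of the other 5 stages called 1130 genes (6.21%), 605 (3.33%) towards the left and 525 (2.89%) towards the right. Without LV2 it called 309 (1.70%), 222 (1.22%) and 87 (0.478%). Leaving out LV1, LV3, RV1, RV2 or RV3 instead gave 1584, 651, 348, 453 and 1022. Dlk1 changed direction in development, from right-higher at E9.5 (adjusted p = 3.52e-11) to a difference of 1.33 at E14.5, with 0.34 at E18.5. Col1a1 went from -0.99 at E9.5 (adjusted p = 0.017) to 1.54 at E14.5 and 1.05 at E18.5 (adjusted p = 0.012). Prrc2c was within 0.26 of 0 at every other stage. Cox6a2 was between -0.21 and 0.07 at the other stages.

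Several other genes differed over a wider span. Gtsf1 was higher in the left ventricle by 2.84 at E9.5, 2.39 at E12.5, 1.50 at E14.5 and 1.48 at E18.5, and was called at all 4 stages. These values are of 1 of its 2 probe sets, and the other was not called at E14.5 (-0.07). Wif1 was higher in the right ventricle at E12.5 (-1.81), E14.5 and E18.5 (-1.94), and its day 3 difference was -1.72 (adjusted p = 0.143). Dcpp1 was called right-higher at E12.5 (-1.88), E14.5 and day 3 (-2.51). Casq1 was called at E12.5 (-1.10) and E18.5 (-1.19), and Rspo3 at E9.5 (-1.89) and E12.5 (-1.60). For Gtsf1, Wif1 and Casq1 the contrast with the other stages was not called (adjusted p = 0.981, 0.504 and 0.458).

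**Figure D4:**
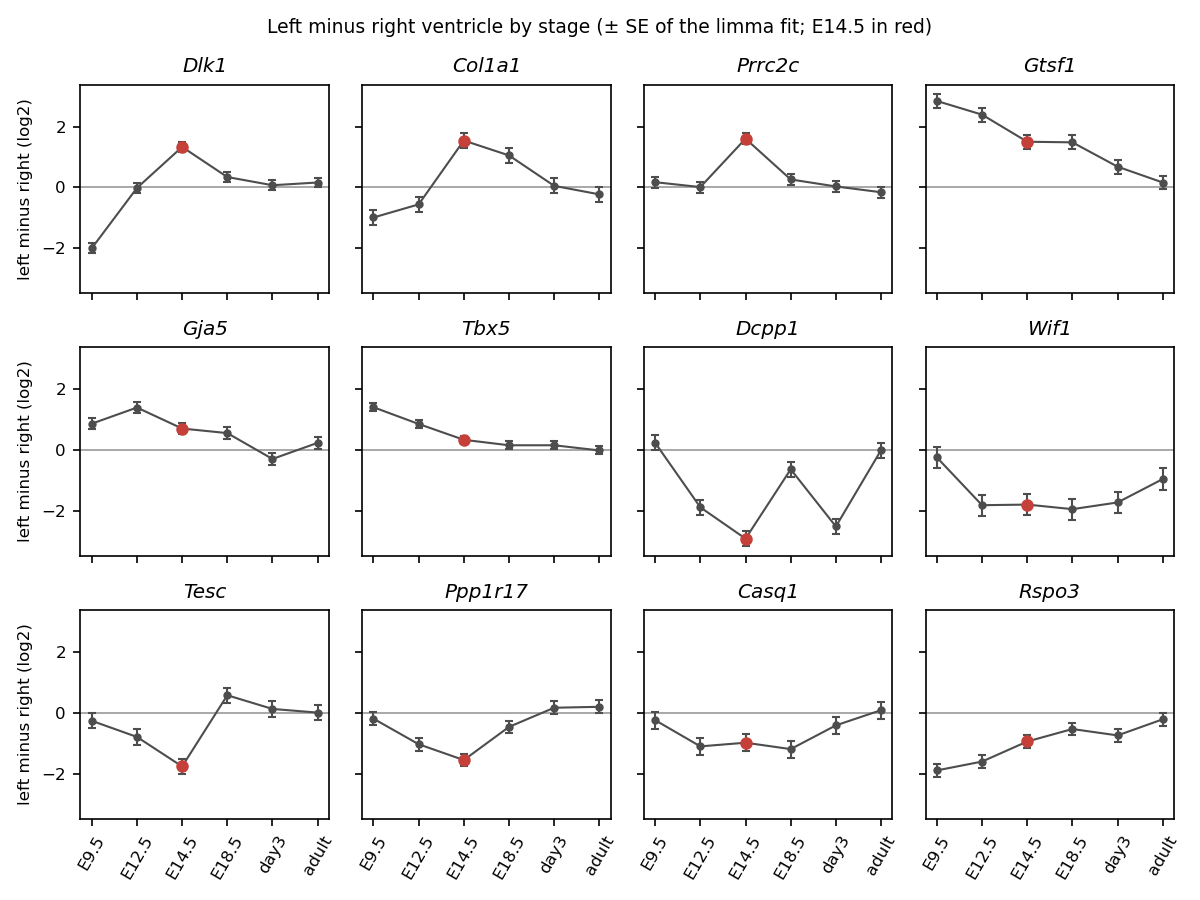
Left minus right difference (log2, vertical axis) at 6 stages for 12 genes, as points with the SE of the limma fit, E14.5 in red. Gtsf1 and Tbx5 decline from E9.5, and Wif1 is below 0 at every stage, nearest to 0 at E9.5 (-0.24). Prrc2c, Tesc and Dlk1 are farthest above or below 0 at E14.5 among E12.5 and later stages.

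The direction of the E14.5 difference also moved with the genomic length of genes. In 5 equal groups of genes by length, from a median of 3.32 kb to 117 kb, the median difference went from -0.09 to 0.04. In the longest group 358 genes were left-higher and 103 right-higher, and in the shortest 44 and 140. The counts without LV2 were 141 and 33 in the longest group, and 9 and 27 in the shortest. The median length of left-higher genes was 59.5 kb, of right-higher genes 17.0 kb and of all genes 20.2 kb, and without LV2 the first 2 were 66.9 and 18.7 kb. At E9.5 the medians also rose with length, from -0.003 to 0.053. They were 0.012 and 0.009 in the shortest and longest groups at E12.5, and 0.046 and -0.046 at E18.5. The 3' to 5' differences of the Actb control probe sets, a measure of RNA integrity, were 0.73 to 0.86 on the left and 0.72 to 0.85 on the right, and of Gapdh 0.00 to 0.16 and -0.05 to 0.07. The part of gene length in the named differences was not tested.

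**Figure D5:**
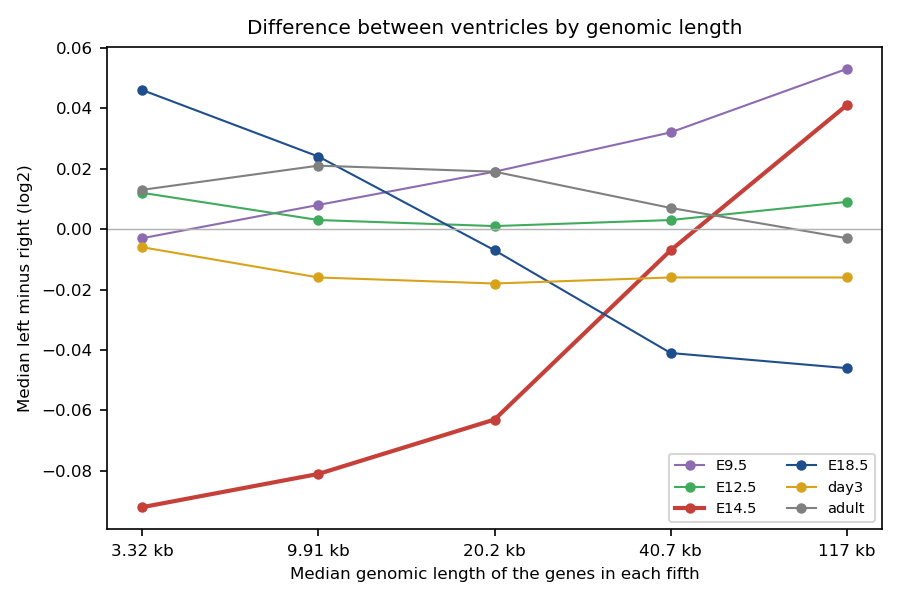
Median left minus right difference (log2) of genes in 5 equal groups by genomic length, for the 6 ventricle stages; the horizontal axis gives the median length of each group. At E14.5 the median went from -0.09 in the shortest to 0.04 in the longest genes, at E9.5 it rose as well, from -0.003 to 0.053, and at E18.5 it went the other way.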

How the data were processed

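Total RNA of 45 tissue or cell pools was hybridised to Affymetrix mouse arrays with 45101 probe sets. The deposited log2 values were made by the authors with RMA, per the submitters' processing notes; its version is not given in the sources used here. Groups follow the labels. Probe sets with 1 gene symbol (34945) were matched to RefSeq by gene ID (34741), and each of 18193 genes was represented by its brightest probe set (by mean over the 45 arrays); 64 control, 932 several-gene and 9224 unnamed probe sets were left out, and genes without a match (37 of those listed) were not analysed here.

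Left and right were compared with limma 3.58.1 in R 4.3.3 (lmFit and eBayes), with 45 arrays in 15 groups, two-sided, adjusted by Benjamini-Hochberg over all genes at 0.05, and again with 44 arrays, without left ventricle replicate 2. The scripts were tested on simulated data. The members and gene lists were chosen with earlier results of these data known. Named by size were up to 12 genes per direction with the largest difference without that array. They had to be called with and without it, not overlap and not be in a list of other tissues. Also named were 19 chamber genes, up to 4 called members per list and up to 8 genes per direction that lost their call. Among the genes named by size and the chamber genes, up to 6 with the smallest adjusted p against the other stages were picked for their values at those stages. Members beyond that, such as Nrp1, Fn1, Thbs2, Hba-x, Sln and the uncalled ones, were named after their values were seen. Alternatives were the spread model, arrays in the fit, array weights, a filter on low values, the probe set rule, housekeeping scaling, a replicate block, thresholds and leaving out arrays. Replicate numbers were not used to pair the ventricles, except in the replicate block.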

Additional observations from a re-analysis of the deposited data

Results flagged for a closer look

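The left minus right difference at E14.5 departed from the mean difference of the other 5 ventricle stages, in the limma contrast with and without left ventricle replicate 2, for 14 of the 24 genes named by size. Given as the E14.5 difference minus that mean (log2), 10 departed towards the left ventricle: Agtr2 (3.75), Sema5a (2.16), Col12a1 (2.34), Chn2 (1.27), Col1a1 (1.68), Prrc2c (1.54), Svep1 (1.45), Col6a3 (1.72), Dlk1 (1.62) and Zbed6 (1.48). The other 4 departed towards the right: Dcpp1 (-1.95), Ppp1r17 (-1.29), Tesc (-1.70) and Cmbl (-0.98). These genes were named for a large E14.5 difference, so a departure of this sign is built into the choice. Agtr2 was 7.99 and 8.04 on left replicates 1 and 2 and 4.46 on left replicate 3.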

How the results depend on the processing

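The 1548 calls of the left against right comparison were 1627 with a trended robust spread, 1490 with ventricle arrays only, 1817 with a filter on low values, 1563 and 1559 under the other probe set rules and 1271 with a replicate block. They were 509 in a fit of the E14.5 arrays alone, 6356 with array weights, 2471 with housekeeping scaling, 523 at an adjusted p under 0.01 and 117 at 2-fold or more. Leaving out 1 array gave 445 to 2148, and leaving out left replicates 1 and 2 together, chosen after seeing the data, gave 150. The 445 calls without left replicate 2 became 2834 with array weights, 94 at an adjusted p under 0.01, 63 at 2-fold or more, and 43 to 436 with a further array left out, the lowest without left replicate 3. The 1130 calls of the contrast with other stages became 5554 with array weights, 2014 with housekeeping scaling, 279 at 0.01, 111 at 2-fold, 66 without left replicates 1 and 2, and 309 to 1584 with 1 array left out. The cause of these changes was not tested.

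Same-numbered left and right arrays had deviations from their group means correlated at -0.119, -0.139 and 0.110. These values differed in sign and come from groups of 3 arrays. They cannot decide whether same-numbered pools came from the same hearts. Left replicates 1 and 2 correlated best with right replicates 2 and 1. With the replicate block the 445 calls became 104 and the 1130 became 873. Array weights were 0.74, 0.395 and 3.349 on the left and 0.921, 4.37 and 0.899 on the right. Of the 24 genes named by size 12 were called under every alternative, and 10 lost their call without left replicates 1 and 2. Of all 114 named genes called with all arrays 20 were called under every alternative. Among the uncalled chamber genes, Hand2 was called under 5 of 16 alternatives (ventricle arrays only, array weights, mean of all probe sets, housekeeping scaling and the replicate block) and Tbx5 under 2 (array weights and without left replicate 1). Bmp7, -0.40 with the main probe set, was 0.15 with the most variable one; no other named gene reversed. With 3 arrays a group, precision is limited by their number.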
